A study of Mus musculus with 24 samples.

Results

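Small nucleolar RNAs (snoRNAs) and small Cajal body RNAs (scaRNAs) were followed through 24 libraries of RNA from a transplanted mouse mammary tumour. The members were the rows of the gene count table whose symbol begins with Snora, Snord or Scarna and a number and that reached 10 counts in at least 3 of the 24 libraries. Of 53465 gene rows, 150 had such a symbol and 40 were members: 22 Snord (box C/D), 13 Snora (H/ACA) and 5 Scarna RNAs. Members were thus selected on their raw counts in these libraries, and not on any comparison between groups. Just inside it stood Snora73a and Snord73a, whose third-highest count was 10, and Snord83b with 11; just outside were Snora20 and Snord4a with 9 and Snord58b with 8. Of the 110 rows left out, 77 had no count in any library. The rule was met within the input libraries alone by 15 members, within the J2 libraries alone by Snord98, and within both kinds by 24.

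The tumour, 2153L, is a triple-negative mammary cancer model, p53 knockout by its label; pieces of it were grown in the cleared mammary fat pads of female BALB/c mice that were 6 to 8 weeks old at transplantation. All groups share this tumour line. The 12 tumours fell into 4 treatments of 3 tumours: vehicle; ORIN1001, an inhibitor of the RNase activity of the stress sensor IRE1α, at 150 mg/kg daily by gavage; docetaxel, a taxane that blocks microtubule turnover, at 10 mg/kg weekly into the peritoneum; and the combination of both drugs. Mice on 1 drug also had the vehicle of the combination study. Each tumour gave an input library of total RNA, depleted of ribosomal RNA, and a library of the RNA pulled down from it with J2, an antibody that binds double-stranded RNA.

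Box C/D snoRNAs direct the 2′-O-methylation, and H/ACA snoRNAs the pseudouridylation, of ribosomal RNA in the nucleolus; scaRNAs do the same for spliceosomal RNAs in Cajal bodies. Each kind folds on itself and carries a fixed set of proteins. In mammals most of them lie in introns of other genes and are trimmed out after splicing, while a few have promoters of their own. A few do not modify RNA but take part in cutting the ribosomal precursor, such as Snord118 (U8) and the Snora73 RNAs (U17).

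All 40 members could be placed on GRCm38.p6, the RefSeq annotation of the build named in the submitters' notes (mm10), and 36 of them lay inside another gene, 23 in a protein-coding gene and 13 in a long noncoding one; 8 lay in 7 ribosomal protein genes. Scarna2 (chromosome 3, 108554342 to 108554402), Snord118 (chromosome 11, 69073426 to 69073562), Snord13 (chromosome 8, 31149861 to 31149958) and Snord89 (chromosome 1, 39548747 to 39548840) lay in none. Scarna13 (chromosome 12, 105031075 to 105031349) lay in the noncoding gene Snhg10, and the microRNA gene Mir3069 lay inside Scarna13. The Mir3069 hairpin is shown because it is the one stretch of a member whose bases RefSeq's microRNA table holds. Its last ACA is in capitals; on this strand it stops 3 bases before the annotated end of Scarna13, which is where the ACA box of H/ACA RNAs stands. No count fell on the Mir3069 row in any of the 24 libraries. Hairpin, chr12:105031077-105031141, minus strand:
Mir3069: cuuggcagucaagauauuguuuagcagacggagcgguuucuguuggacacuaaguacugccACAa

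The promoters of Rpl37 and Snhg10 are shown because Rpl37 and the Snord72 it encloses are the pair that was called in opposite directions for the change in J2 enrichment with the combination, and because Snhg10 encloses Scarna13. Opposite signs were not particular to these genes: member and gene had the same sign in 9 of 22 pairs. The capitals mark TTCCGG, or CCGGAA on the other strand, a core of the sites that ETS factors bind. Among all 32851 promoter windows of this length in the RefSeq table (250 bases before to 50 after the start), 14.9% held the motif, and 13 of the 25 enclosing genes with a window held it. A match describes these letters only. Rpl37 at chr15:5116363-5116662 (plus strand) had 3 matches and Snhg10 at chr12:105032230-105032529 (minus strand) had 1:
Rpl37: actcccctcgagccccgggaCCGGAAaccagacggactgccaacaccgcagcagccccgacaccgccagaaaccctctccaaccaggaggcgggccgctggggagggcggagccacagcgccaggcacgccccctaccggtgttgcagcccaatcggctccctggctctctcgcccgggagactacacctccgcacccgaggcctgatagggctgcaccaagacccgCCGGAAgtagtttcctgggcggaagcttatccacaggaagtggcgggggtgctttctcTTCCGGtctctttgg
Snhg10: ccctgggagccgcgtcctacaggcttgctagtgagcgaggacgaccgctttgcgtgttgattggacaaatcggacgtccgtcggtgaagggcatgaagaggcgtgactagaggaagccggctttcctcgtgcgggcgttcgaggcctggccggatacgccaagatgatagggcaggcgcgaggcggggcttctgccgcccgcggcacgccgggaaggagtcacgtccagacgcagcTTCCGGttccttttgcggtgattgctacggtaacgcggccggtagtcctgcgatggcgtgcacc

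Gene counts came to between 3.27 M and 63.3 M (M: 1000000) per input library and between 2.54 M and 18.7 M per J2 library. Ribosomal RNA loci held 0.537% to 3.49% of the counts in 11 inputs and 70.5% in docetaxel input 3; among J2 libraries they held 23.1% to 58.9% in the combination, 17.1% in docetaxel 3 and 1.31% to 6.18% in the rest. All 7 epithelial markers were counted in every group, so the labelled mammary tumour identity had its markers. No epithelial, fibroblast or macrophage marker was called in an input comparison with vehicle; in the combination, 2 of 4 neutrophil markers tested were lower, the 5 of the list summing to 18.9 to 29.8 CPM against 41.3 to 86.6 with vehicle, and Ly6g stood at 0. Of 6 T cell markers, 0 were called for the combination against vehicle. In the combination 2 were higher than with docetaxel (5.46% of all genes) and 4 than with ORIN1001 (7.2%). Lower than with ORIN1001 were 1 endothelial, 1 macrophage and 2 neutrophil markers (5.43% of all genes), and lower than with docetaxel 1 neutrophil marker (1.96%). The part of these shifts, and of the ribosomal RNA share, in the results below was not tested. In bulk RNA, fewer cells of a type and less RNA per cell cannot be told apart.

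The members took a small part of the libraries, and Scarna2 took most of that part. Together they had 55922 counts, 117.9 per 1000000 gene counts, and Scarna2, which guides methylation of U2 RNA, had 31481 of them. Next came Snord17 with 3853, Snora17 with 2086 and Scarna6 with 2079, while 27 members had under 500 counts over all 24 libraries. Precision is therefore low for most members, and counts near 0 in 1 library carry little. The share of gene counts at the members was 90.1 ± 8.56 per 1000000 (SD, n = 3) in vehicle inputs, 73.9 ± 4.56 with ORIN1001, 121.5 ± 19.8 with docetaxel and 155.1 ± 55.2 with the combination. In J2 libraries it was 126.9 ± 29.1 with vehicle, 80.4 ± 26.7 with ORIN1001, 198.4 ± 211.2 with docetaxel and 475.5 ± 139.4 with the combination. J2 exceeded the tumour's own input in 8 of 12 tumours, all 3 of vehicle and of the combination among them; without Scarna2 it did so in 6.

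**Figure D1:**
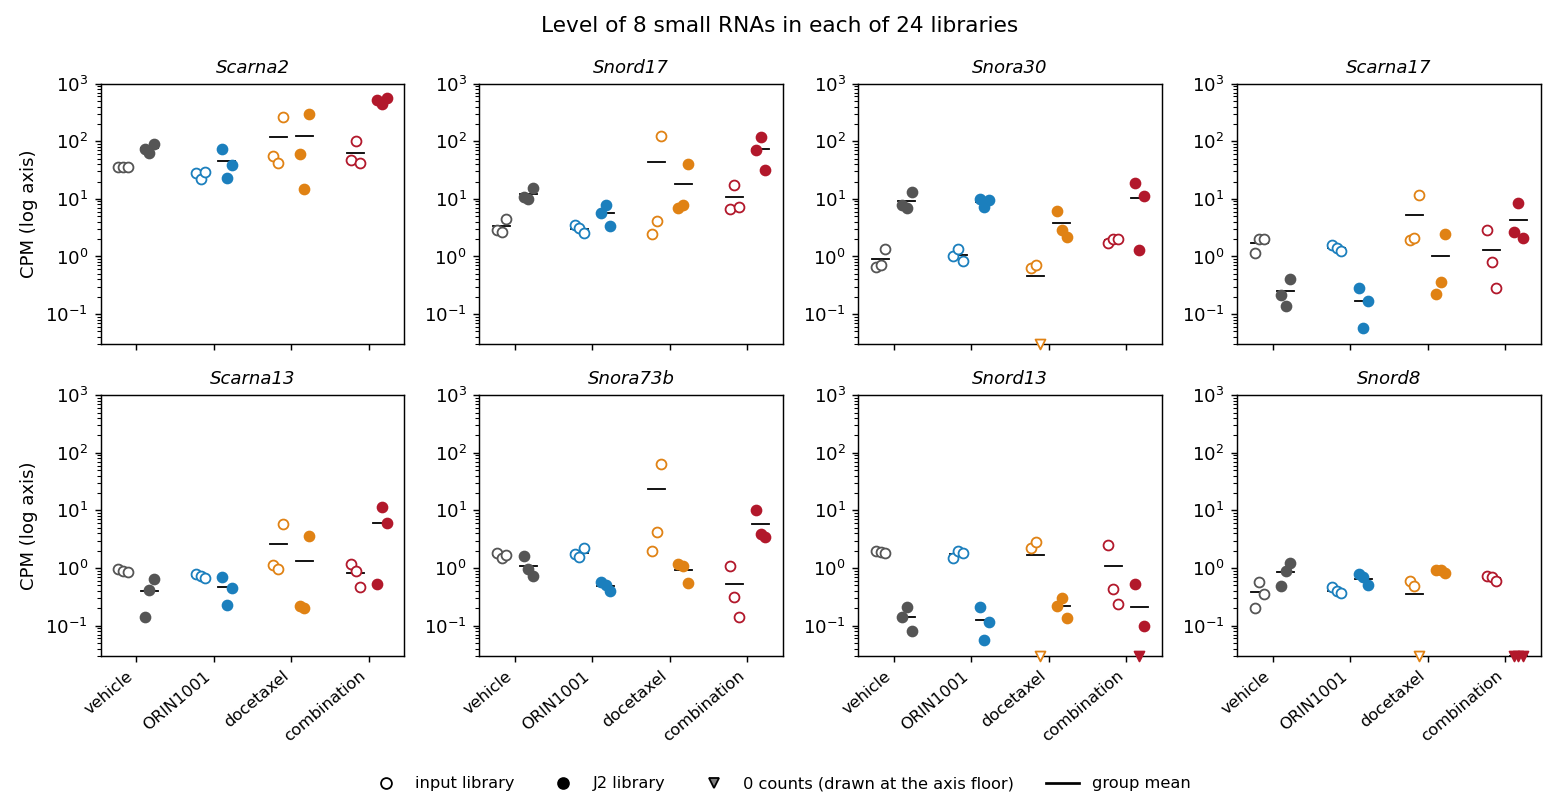
Level of 8 members in each of the 24 libraries, in CPM (counts per 1000000 of the scaled library, log axis), by treatment; open points are input and filled points J2 libraries, bars are group means and triangles mark 0 counts. Scarna2 lies between 443.3 and 570.0 CPM in the J2 libraries of the combination, above every other library, and Snord8 is at 0 in these 3.

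Antibody J2 divided the members in both directions. Over all 4 treatments, 8 of the 34 members that could be tested were higher in J2 than in input and 10 were lower (edgeR quasi-likelihood test with tumour as a block, Benjamini-Hochberg adjusted p below 0.05). Of all 17338 genes tested 55% were called, 25% higher and 30% lower, so the members' 18 of 34 lies near the background. The median log2 ratio was -0.43 for members and -0.05 for all genes. The 15 members that met the count rule within the inputs alone were favoured towards low ratios by the selection. Snord98, which met it within the J2 libraries alone, was favoured towards a high one. Box C/D RNAs split 5 higher and 5 lower of 18 tested, H/ACA RNAs 2 and 4 of 11, and scaRNAs 1 and 1 of 5.

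Snora30, an H/ACA RNA within the chromatin remodeller gene Srcap (chromosome 7, 127527897 to 127528003), had the highest ratio. In input libraries it stood at 0.660, 0.700 and 1.33 CPM with vehicle, 1.01, 1.34 and 0.835 with ORIN1001, 0.642, 0.723 and 0 with docetaxel, and 1.71, 2.01 and 2.05 with the combination. In J2 libraries the values were 7.72, 6.89 and 13.0 with vehicle, 9.93, 7.15 and 9.38 with ORIN1001, 6.19, 2.85 and 2.20 with docetaxel, and 18.6, 1.32 and 11 with the combination. J2 was above input in 11 of 12 tumours, combination 2 with its 3 J2 counts being the exception. Docetaxel 3 is among the 11, but its 0 input counts allow up to 3.48 CPM, above its J2 value of 2.20. The direction in that tumour is therefore not settled. The log2 ratio was 2.80 ± 0.25 (SE, adjusted p = 1.22e-06), and Snora30 was called higher in each of the 4 treatments taken alone, which no other member was.

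Snord17, a long box C/D RNA within Snx5 (chromosome 2, 144265982 to 144266202), was also higher in J2. Its inputs held 2.90, 2.7 and 4.55 CPM with vehicle and its J2 libraries 10.8, 10.1 and 15.2. With the combination the inputs held 6.72, 17.7 and 7.30 CPM and the J2 libraries 69.7, 120.6 and 32.1. The groups did not overlap in either treatment, and J2 was above input in 11 of 12 tumours, docetaxel 3 excepted with 123.1 CPM in input and 40.4 in J2. The log2 ratio was 1.43 ± 0.22 (adjusted p = 7.00e-05).

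Scarna2 was higher in J2 in 11 of 12 tumours, with docetaxel 2 as the exception. The vehicle inputs held 35.1, 35.6 and 35.0 CPM and the J2 libraries 73.4, 63.4 and 91.2. ORIN1001 tumours had 27.6, 22.5 and 29.5 CPM in input against 72.6, 22.6 and 39.2 in J2. Docetaxel tumours had 56.2, 41.9 and 263.5 against 60.7, 14.8 and 291.7. Only the vehicle and the combination separated the 2 kinds of library fully. The log2 ratio over all treatments was 1.11 ± 0.18 (adjusted p = 0.000103); over the 8 tumours whose libraries both held under 10% ribosomal RNA counts (vehicle, ORIN1001, and docetaxel 1 and 2), it was 0.39 ± 0.17 (adjusted p = 0.0538), which is not called.

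Of the other higher members, Snord98, within Ccar1, had a log2 ratio of 2.04 ± 0.42 (adjusted p = 0.000763). It met the count rule within the J2 libraries alone, so the selection favoured a high ratio. Its J2 level was above input in 9 of 12 tumours, all 3 of vehicle and of docetaxel among them, and over the 8 tumours with low ribosomal RNA counts the ratio was 2.26 ± 0.39 (adjusted p = 0.00018). The call was lost in 1 of the 12 fits that left out a tumour, that without combination 3 (0.24 ± 1.83, adjusted p = 0.929), where both J2 libraries left in the combination were at 0. Snord71 reached 1.35 ± 0.37, Snord53 0.89 ± 0.35, Snora23 0.84 ± 0.25 and Snord43 0.68 ± 0.22, with adjusted p between 0.0063 and 0.0404. J2 was above input for Snord71, Snord53 and Snord43 in 9 of 12 tumours and for Snora23 in 8. The tallies of Snord98, Snord71 and Snord53 include docetaxel 3, with J2 values of 0.549, 2.75 and 1.65 CPM. Its 0 input counts allow up to 3.48 CPM, so the direction in that tumour is not settled for these members. Snord43 had 1 input count there (1.16 CPM) against 1.65 CPM in J2, a log2 ratio of -0.02 with 0.5 added to the counts. Its direction in docetaxel 3 is not settled either. Snord53 lost the call in 8 of the 12 fits that left out 1 tumour (adjusted p up to 0.164; the 4 that kept it left out ORIN1001 1, docetaxel 2, docetaxel 3 or combination 2), and Snord43 lost it without docetaxel 1 or combination 1 (0.068 and 0.0512).

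Snord13 (U13), a box C/D RNA with its own transcription unit that pairs with the 18S precursor and serves its acetylation, had the lowest ratio. Inputs held 1.95, 1.87 and 1.82 CPM with vehicle, 1.51, 1.96 and 1.79 with ORIN1001, 2.25, 2.88 and 0 with docetaxel, and 2.53, 0.440 and 0.233 with the combination. J2 libraries held 0.142, 0.207 and 0.0802 CPM with vehicle, 0.211, 0.0572 and 0.114 with ORIN1001, 0.221, 0.305 and 0.137 with docetaxel, and 0.532, 0 and 0.10 with the combination, 0 to 6 counts each. Input was above J2 in 11 of 12 tumours, the exception being docetaxel 3, where 1 J2 count met 0 in input. The log2 ratio was -3.14 ± 0.29 (adjusted p = 1.43e-06). Snord13 met the count rule within the inputs alone, so the selection favoured a low ratio.

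Scarna17, which guides methylation of U12 and U4 RNAs, was lower in J2 in 10 of 12 tumours and higher in 2 of the combination, with a log2 ratio of -1.58 ± 0.31 (adjusted p = 0.000513). Snora78, within Snhg9, showed the same 10 and 2, at -2.16 ± 0.49 (adjusted p = 0.0018). Snora17, the most counted H/ACA member, within Snhg7, was below input in 11 of 12 tumours, at -0.82 ± 0.18 (adjusted p = 0.00122). Snord118 (U8), needed for the 5.8S and 28S precursors, was at -0.61 ± 0.20 (adjusted p = 0.0174). The remaining lower members were Snord89, Snora57, Snora69, Snord15a and Snord104, from -1.46 to -0.88. Like Snord13, Snora78 and Snord15a met the count rule within the inputs alone. Snord118 lost the call without vehicle 2, docetaxel 2 or combination 3 (adjusted p = 0.0527, 0.0937 and 0.0715). Snord15a lost it without vehicle 1, vehicle 2, ORIN1001 1, docetaxel 2 or combination 1 (0.0527 to 0.065), and Snora69 without vehicle 1, ORIN1001 3, docetaxel 2, combination 2 or combination 3 (0.051 to 0.0991).

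Over the 8 tumours with low ribosomal RNA counts, 7 members were higher and 13 lower, where 70.5% of all genes were called; 14 of the 18 members kept their call and direction, and Scarna2, Snora23, Snora69 and Snord89 did not. Scarna13, Scarna6, Snora31, Snora41, Snora73b and Snord8 were called there and not over all 12 tumours. By treatment, J2 was called higher for 8 and lower for 5 members in vehicle tumours (41.4% of all genes called, 20.2% higher and 21.1% lower), 1 and 5 with ORIN1001 (28.1%), 2 and 6 with docetaxel (23.9%), and 9 and 5 with the combination (36.8%). The vehicle count was 5, 6 and 8 in place of 13 without vehicle tumour 1, 2 and 3 (21.6%, 20.5% and 23.8% of all genes called). The docetaxel count of 8 became 13 without docetaxel 3 (39.8%), 4 without docetaxel 1 (5.11%) and 1 without docetaxel 2 (2.79%). The ORIN1001 count of 6 became 3 without ORIN1001 2 or 3 (11.9% and 12.7%) and 10 without docetaxel 3 (40.1%), and the combination count of 14 became 8 without combination 2 (29.5%) and 5 without combination 3 (18.1%).

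**Figure D2:**
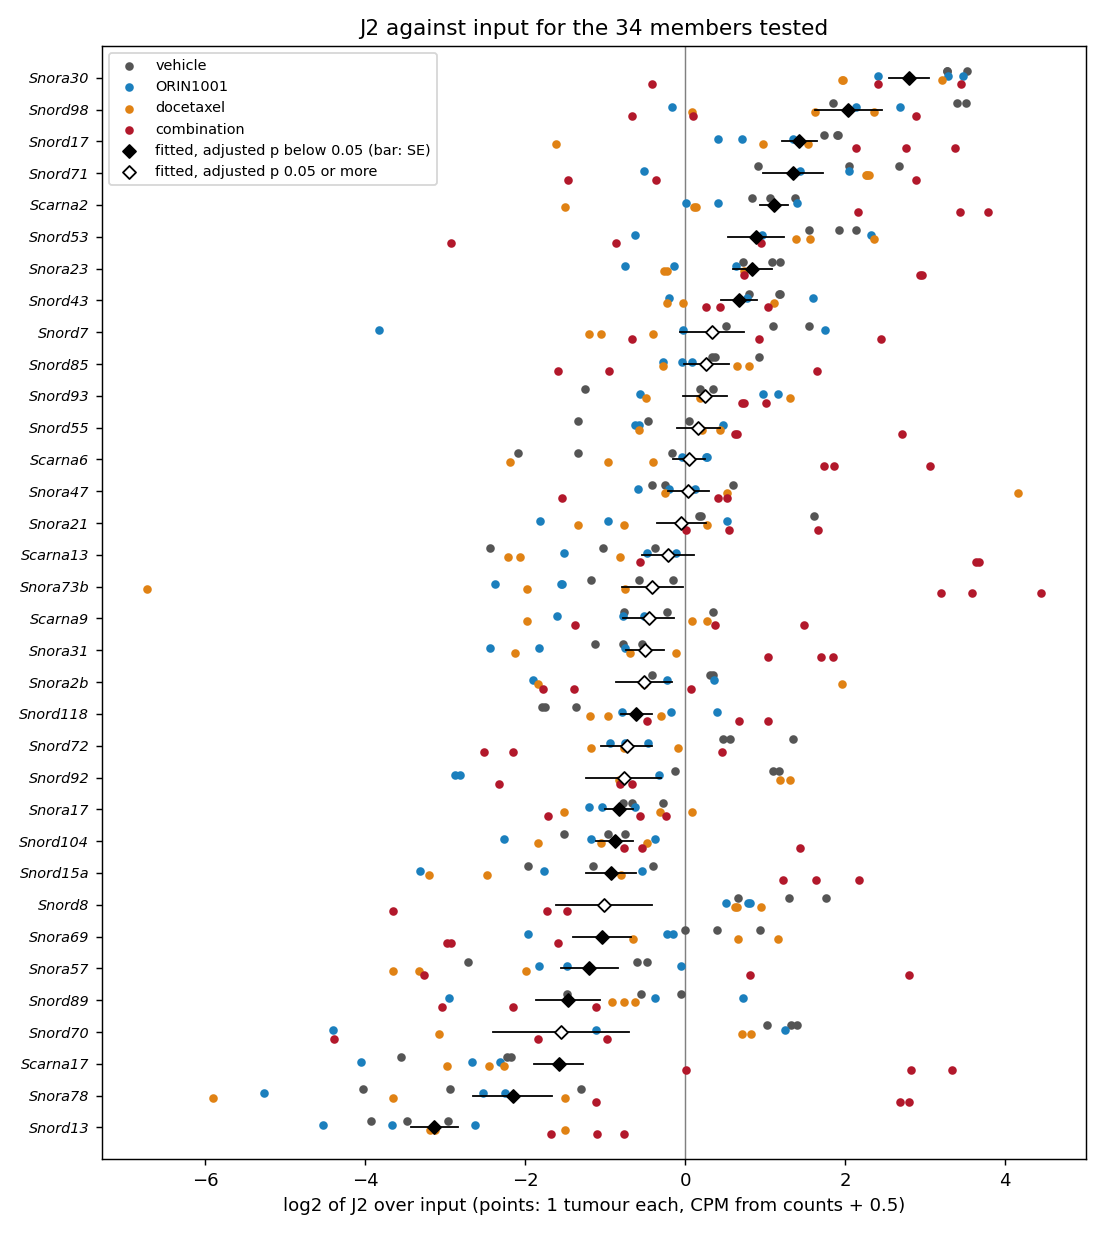
Log2 of J2 over input for the 34 members tested, ordered by the fitted value; each coloured point is 1 tumour (CPM from counts plus 0.5), diamonds with SE bars are the fitted values over all treatments, and black diamonds have an adjusted p below 0.05. Snora30 stands at the top with 2.80 and Snord13 at the bottom with -3.14; the red points of the combination lie above all others for Scarna2, Scarna6 and Scarna17.

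Between the combination and vehicle, J2 enrichment was called different for 13 of 34 members, 8 higher and 5 lower with the combination. Of all genes 29.9% were called, 12.7% higher and 17.1% lower, so the members' share lies near the background, and the values below describe single members. With rRNA loci left out of the counts the same 13 were called, a fit that only drops these rows. Of the 8, 4 were scaRNAs: Scarna2, Scarna6, Scarna13 and Scarna17 were called and Scarna9 was not (0.41 ± 0.89). The 3 combination J2 libraries are also those with the highest share of ribosomal RNA loci (38.8%, 58.9% and 23.1%), and with 4 to 14 members at 0; the part of this in the differences was not tested.

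Scarna2 held 48.1, 99.3 and 41.2 CPM in the combination inputs and 521.1, 443.3 and 570.0 in their J2 libraries. Every tumour of the combination had a higher ratio than every vehicle tumour. The change in log2 ratio was 2.04 ± 0.49 (adjusted p = 0.00782). Scarna6 held 3.44, 3.22 and 3.71 CPM in vehicle inputs and 0.779, 1.24 and 3.29 in J2, against 5.95, 4.03 and 2.79 and then 19.7, 33.8 and 10.2 with the combination. It was thus below input in all 3 vehicle tumours and above it in all 3 of the combination, a change of 3.36 ± 0.56 (adjusted p = 0.00144).

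Scarna13, an H/ACA-type scaRNA that guides modification of U5 RNA, had 2, 6 and 8 counts in vehicle J2 libraries and 1, 26 and 60 in those of the combination, whose inputs had 21, 14 and 10. It exceeded input in combination 2 and 3 and not in combination 1. The change was 4.01 ± 0.94 (adjusted p = 0.00657). Scarna17 had 3, 2 and 5 counts in vehicle J2 libraries and 5, 19 and 21 in the combination's, at 2.66, 8.33 and 2.10 CPM, against 2.86, 0.818 and 0.279 CPM in their inputs. Here too combination 1 did not exceed its input. The change was 4.85 ± 0.85 (adjusted p = 0.00165), the highest of any member.

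Snora73b (U17b), which takes part in the first cuts of the 18S precursor, lies in Snhg3 (chromosome 4, 132352322 to 132352526). Vehicle tumours had 1.84, 1.47 and 1.71 CPM in input and 1.63, 0.964 and 0.722 in J2. Combination tumours had 1.10, 0.315 and 0.140 in input and 10.1, 3.95 and 3.50 in J2. The input difference of -1.66 ± 1.12 was not called (adjusted p = 0.362). J2 was below input in 9 of 9 tumours of the other treatments and above it in 3 of 3 of the combination, a change of 4.32 ± 1.08 (adjusted p = 0.0092). Snora31, in Tpt1, changed by 2.47 ± 0.64 and Snord15a, in Rps3, by 2.79 ± 0.87, both below input in all 9 other tumours and above it in all 3. Snord118 changed by 1.93 ± 0.62 (adjusted p = 0.0297). Snord15a lost the call without vehicle 1, vehicle 2, combination 2 or combination 3 (adjusted p = 0.0728 to 0.0973) and Snord118 without any vehicle tumour, combination 1 or combination 2 (0.0512 to 0.154), while Scarna2, Scarna6, Scarna13, Scarna17, Snora31 and Snora73b kept it whichever single tumour was left out.

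The 5 members that went down had few counts. Snord8, which guides methylation of U6 RNA, had 7, 13 and 15 counts in vehicle J2 libraries and 13, 11 and 13 in the combination inputs, and none in the 3 combination J2 libraries. With 3 counts over the 3 pooled libraries as the floor, its pooled J2 level there was at least 3.14-fold lower than pooled input. It was at least 4.02-fold lower than pooled vehicle J2. Snord70, in Nop58, had 16, 9 and 17 counts in vehicle J2 libraries and 9, 12 and 22 in the combination inputs, and again none in combination J2, at least 3.65-fold lower than input and 4.82-fold lower than vehicle J2. Both tests passed the threshold (adjusted p = 0.00365 and 0.0207), but Snord70 did not without vehicle 1 or combination 3 (0.0508 and 0.156). The floor of 3 counts over these 3 libraries is 0.212 CPM. Taken singly, 3 counts equal 1.59, 1.31 and 0.300 CPM in combination J2 1, 2 and 3. The inputs of combination 1 and 2 held 0.716 and 0.692 CPM of Snord8 and 0.495 and 0.755 of Snord70, below those limits. A fall was thus not detectable in either tumour alone, and the pooled bounds rest mostly on combination 3, the deepest of these J2 libraries.

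Snora69, in Rpl39, had 9, 13 and 14 counts in vehicle J2 libraries and 0, 0 and 1 in the combination's, against 14, 27 and 24 in the combination inputs. The change was -4.41 ± 1.15 (adjusted p = 0.0112), and without combination 3 the adjusted p was 0.0588. Snord72, in Rpl37, had 6, 11 and 12 counts in vehicle J2 and 1, 0 and 1 with the combination, a change of -3.16 ± 0.97 (adjusted p = 0.0245). Snord53, in Wdr43, had 20, 17 and 22 against 2, 0 and 5, a change of -2.91 ± 0.95 (adjusted p = 0.0327). Snord72 and Snord53 both lost the call without any 1 of the vehicle tumours, and without combination 2 or 3 (adjusted p up to 0.2 and 0.116). In combination J2 1 and 2, 3 counts equal 1.59 and 1.31 CPM. The inputs held less of Snord72 in both tumours (0.551 and 0.944 CPM). In combination 1 they also held less of Snora69 (0.771) and Snord53 (0.661). A fall was not detectable in these cases. The count of 13 members became 8 without vehicle 1 (18.1% of all genes called) or without combination 3 (19.0%). Across the 34 members the median change was 0.34, also with Snord8 and Snord70 at their bounds, and -0.0047 for all genes.

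ORIN1001 alone and docetaxel alone gave no called change in J2 enrichment, for members or for any gene (0% of 17338 in both comparisons, which share the vehicle tumours with the one above). At an unadjusted p below 0.05 edgeR had 4 members for ORIN1001, of which Snord118 (1.51 ± 0.51), Snord92 (-2.97 ± 1.23) and Snord72 (-1.59 ± 0.68) had the smallest p, and 2 for docetaxel, Scarna2 (-1.49 ± 0.49) and Snord17 (-1.54 ± 0.62). In docetaxel tumours 1, 2 and 3 the log2 ratios were 0.11, -1.50 and 0.14 for Scarna2. Those of Snord17 were 1.53, 0.97 and -1.61, the last from the tumour whose input held 70.5% ribosomal RNA counts. DESeq2 called 0 members in both. With limma-voom and sample weights 11 members were called for ORIN1001, 2 higher and 9 lower, where 21.3% of all genes were, and 0 for docetaxel. Without the filter on low counts edgeR called 0 members for ORIN1001 and 2 for docetaxel, both lower, where 0.423% of genes were.

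**Figure D3:**
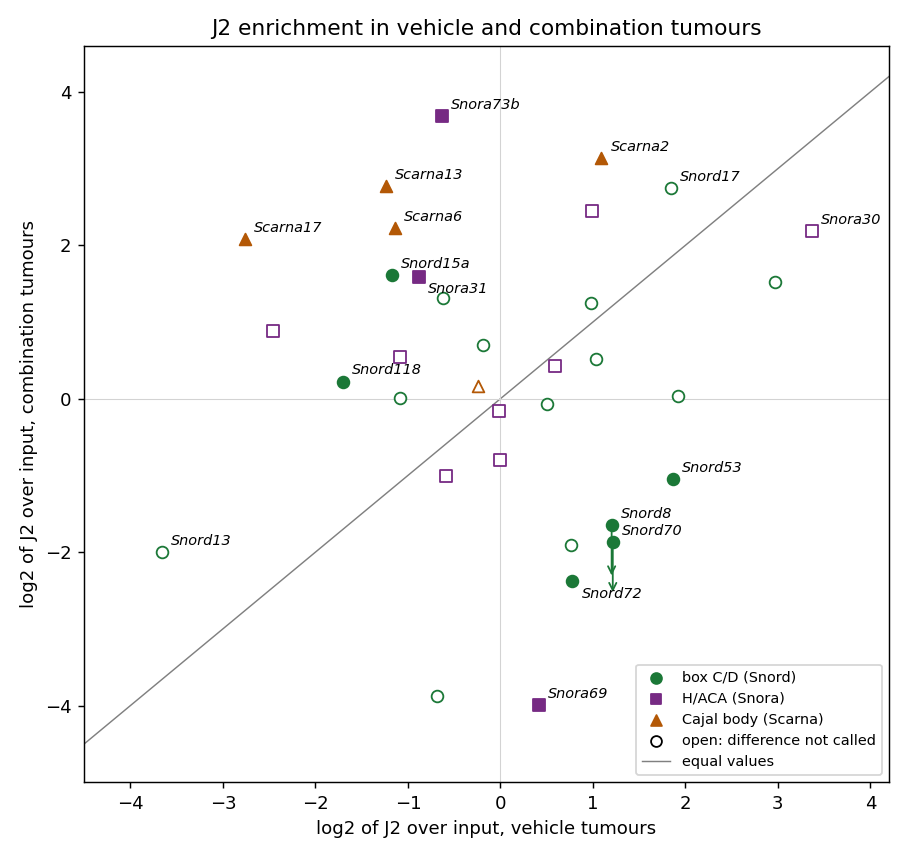
Log2 of J2 over input in vehicle (x) and combination (y) tumours for the 34 members tested, by family; filled symbols had a called difference and arrows mark Snord8 and Snord70, drawn at the bound that 3 counts allow. Called members fall on both sides of the line of equal values: 8 above it, 4 of them scaRNAs, and 5 below.

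In the input libraries themselves few members differed between treatments. Of the 37 members tested, none was called for ORIN1001 against vehicle or for docetaxel against vehicle, where 0% of 17768 genes were called. For the combination against vehicle none was called either, where 4.77% of genes were; 7 members had an unadjusted p below 0.05, all of them higher. DESeq2 called 0, 1 and 2 members in these 3 comparisons (0.191%, 0.737% and 14% of all genes) and limma-voom 0, 0 and 16 (0.0113%, 0.152% and 38.8%), and edgeR had 0 and 4 members at an unadjusted p below 0.05 for the 2 single drugs. The median log2 difference for the combination was 0.33 for members and -0.03 for all genes, and the libraries of the 2 groups did not overlap for 12 of 37 members, against 47.8% of all genes.

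Snord71 came nearest to the threshold. It held 0.258, 0.300 and 0.325 CPM in vehicle inputs, 0.645, 0.391 and 0.270 with ORIN1001, 0.268, 0.174 and 0 with docetaxel, and 0.440, 1.38 and 1.49 with the combination, which were 8, 22 and 32 counts. The combination lay above vehicle without overlap, as for 47.8% of all genes in either direction. It also lay above the docetaxel values, and 25.3% of all genes did not overlap there. The 0 counts of docetaxel input 3 allow up to 3.48 CPM, above the combination, so a separation from docetaxel is not shown. Against vehicle the log2 difference was 1.94 ± 0.51 (adjusted p = 0.0513), and against docetaxel it was 2.52 ± 0.61 (adjusted p = 0.032). Without docetaxel input 3, the library with 70.5% ribosomal RNA counts, 7 of 38 members were called for the combination against vehicle, where 28% of all genes were, and 4 of 37 without combination 1, where 7.21% were.

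Against docetaxel 7.43% of genes were called, 5.46% higher and 1.96% lower, and 3 members: Snord71 and Snora30 higher and Snora73b lower. Snora30, which like Snord71 had 0 counts in docetaxel input 3, was higher by 1.65 ± 0.45 (adjusted p = 0.0466). Snora73b held 1.98, 4.30 and 65.0 CPM with docetaxel against 1.10, 0.315 and 0.140 with the combination; its difference of -5.22 ± 1.25 (adjusted p = 0.031) was -2.54 ± 0.60 without docetaxel 3 (adjusted p = 0.016). The count of 3 became 0 without docetaxel 1, docetaxel 2, combination 2 or combination 3, 1 without vehicle 1 or ORIN1001 2, and 5 without combination 1 (8.6% of all genes). Against ORIN1001 12.6% of genes were called, 7.2% higher and 5.43% lower, and 1 member, Snora2b, an H/ACA RNA in Kansl2: 0.387, 0.228 and 0.221 CPM with ORIN1001 and 0.881, 1.70 and 0.977 with the combination, without overlap, as for 54.3% of all genes. Its difference was 2.10 ± 0.44 (adjusted p = 0.0202); the count of 1 became 0 without ORIN1001 2 or 3 or without combination 2 or 3, 5 without combination 1 (11.8% of all genes) and 12 without docetaxel 3 (35.2%). The 3 comparisons of the combination share its inputs.

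Docetaxel input 3 bore most of the docetaxel group's values. In it 23 of 40 members had 0 counts, which at its depth allows up to 3.48 CPM; for 22 of the 23, all other 11 inputs lay below that limit, so a fall was not detectable at this depth. The 7 members with at least 10 counts in it were Scarna2, Snord17, Snora73b, Scarna6, Snora57, Snora31 and Scarna17. Since 10 counts here equal 11.6 CPM, and no other input reached that level for these members except for Scarna2 and Snord17, the position of the other 5 above the other inputs follows from that minimum. Scarna2 stood at 263.5 CPM against 22.5 to 99.3, Snord17 at 123.1 against 2.41 to 17.7 and Snora73b at 65.0 against 0.140 to 4.30. Against vehicle, docetaxel gave Snora73b a difference of 3.56 ± 1.12, Snord17 3.44 ± 1.20 and Scarna2 1.66 ± 0.59 (adjusted p = 0.426 for each); without docetaxel 3 these were 0.90, -0.08 and 0.44.

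**Figure D4:**
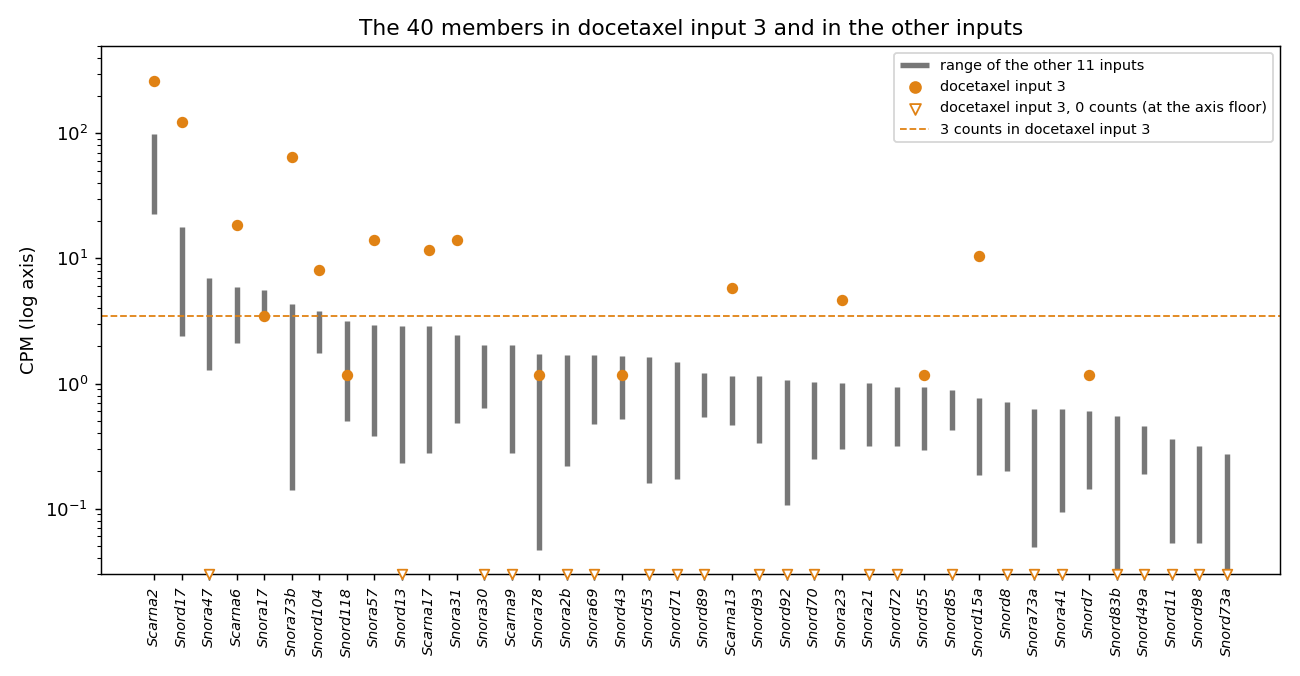
CPM (log axis) of all 40 members in docetaxel input 3 (orange; triangles mark 0 counts) and the range of the other 11 inputs (grey bars), with 3 counts in docetaxel input 3 as a dashed line. Scarna2 at 263.5 CPM and Snord17 at 123.1 stand above their grey bars, while 23 members are at 0.

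The J2 enrichment of members was set beside that of the genes that enclose them. For the 22 members whose enclosing gene was also tested, the J2 ratio over all treatments was above that of the gene for 15 and below for 7, with a median difference of 0.72 on the log2 scale. Both were called for 4 pairs, none in opposite directions. The difference between member and gene was not tested, and the 22 members lie in 21 genes. For the change with the combination, 9 of 22 members were above their gene, and 1 of the 2 pairs with both called went in opposite directions: Snord72 at -3.16 and Rpl37, a protein of the large ribosomal subunit, at 2.53 ± 0.46 (adjusted p = 0.00198). Scarna13 at 4.01 stood beside Snhg10 at -1.17 ± 0.81 (adjusted p = 0.291), the gene whose promoter is printed above. In the inputs, the combination against vehicle gave a member above its gene in 22 of 26 pairs; Rpl37 was the 1 enclosing gene called, at -1.26 ± 0.30 (adjusted p = 0.0433), with Snord72 at 0.97 ± 0.39 (adjusted p = 0.139).

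**Figure D5:**
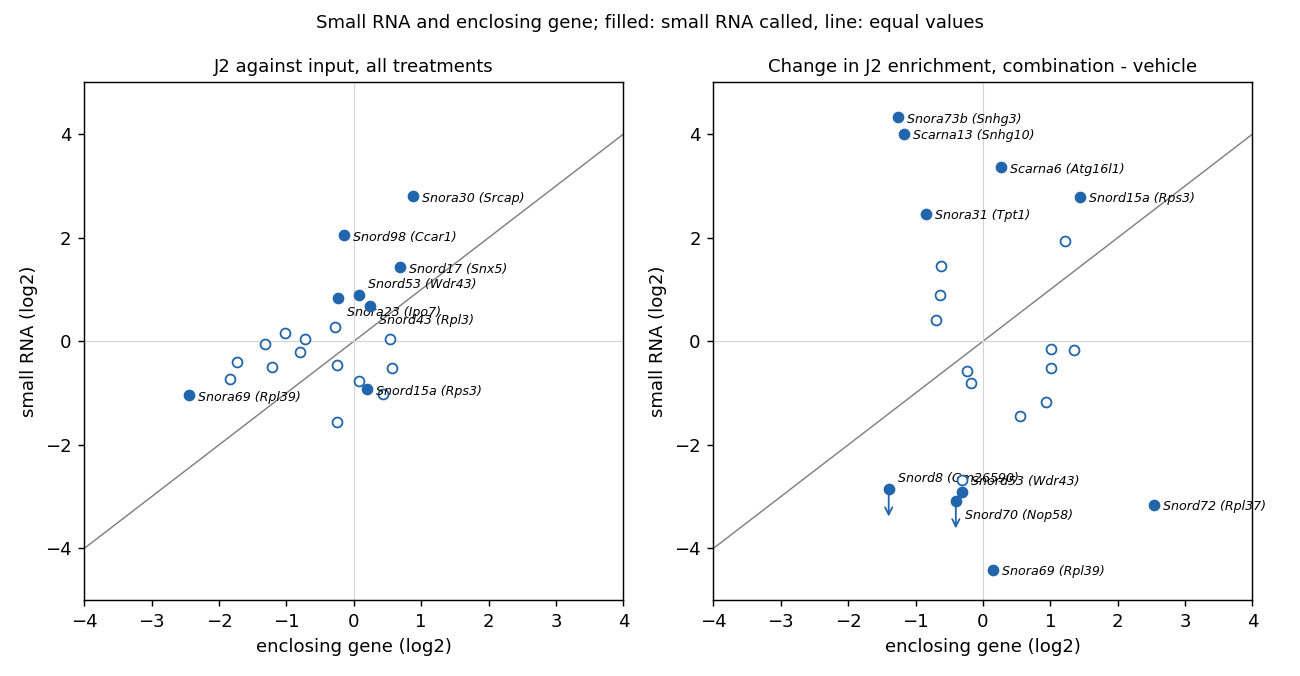
Log2 values of each member (y) against its enclosing gene (x) for J2 over input in all treatments (left) and for the change in J2 enrichment with the combination (right), 22 pairs each; filled points are called members, the line marks equal values and arrows mark bounds. Snord72 at -3.16 and Rpl37 at 2.53 lie at the lower right of the right panel.

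The proteins that bind, build and trim these RNAs were not called in the inputs of any treatment against vehicle (0 of 29 tested). Nufip1 and Nolc1, assembly factors of box C/D particles and of both kinds, came nearest with the combination (adjusted p = 0.0512 and 0.0513), and Nufip1 and Ruvbl1 were lower than with docetaxel alone, as were 1.96% of all genes. Their messenger RNAs were mostly lower in J2 than in input: 23 of 29 were called lower and 1 higher, with a median of -0.54, where 30% of all genes were lower and 25% higher. All 4 H/ACA core proteins were lower, Nop10 by most at -1.78, as was the methyltransferase Fbl at -1.16; Wrap53, which brings scaRNAs to Cajal bodies, was the 1 higher, at 1.35. With the combination, J2 enrichment was called higher for 11 of 29, among them Nop56 at 1.64, and lower for Snu13 at -1.29 and the exosome nuclease Dis3 at -0.73 (all genes: 12.7% higher, 17.1% lower). Of 18 noncoding host genes, 16 were tested in J2: 10 were lower and Snhg17 higher (0.42), beside the same 30% and 25% of all genes, and with the combination 6 changed upward and 2 downward, beside 12.7% and 17.1%, Snhg8 at 3.40 and Snhg14 at -4.99 being the extremes.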

How the data were processed

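Members, lists and comparisons were chosen with earlier results of these data known. Raw counts per gene were deposited by the authors in 1 table of 24 libraries; the submitters' processing notes name mm10 as build and, as tools, featureCounts 2.0.3, STAR 2.7.3a and fastp 0.23.2. Strand setting and treatment of multi-mapped reads: not given in the sources used here. Reads of a member, of an overlapping intron and of near-identical copies may not be told apart. Symbols were joined by gene ID (53274 of 53465 rows).

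The edgeR 4.0.16 quasi-likelihood models were fitted in R 4.3.3, with TMM scaling and filterByExpr (minimum count 10, minimum total 15). Benjamini-Hochberg adjustment was over all genes at 0.05. The models were 1 over the 12 inputs, and 1 over all 24 libraries with tumour as a block, since each J2 library has its own input. Deviations of both libraries of a tumour correlated above 0.1 in 12 of 12 tumours. In the combination the values were only 0.102, 0.144 and 0.164, against 0.687 to 0.806 with vehicle. Inputs with the same number in different treatments reached up to 0.200, so the pairing is hardly shown in the combination. SE is the log2 value divided by the root of F. It includes the residual spread between libraries in the fit, and SD is over the 3 tumours of a group. CPM are counts per 1000000 of the TMM-scaled library, and floors of 3 counts cover counting error only. Enclosing genes come from the RefSeq table of GRCm38.p6 by position, without strand, which that table lacks; the shortest gene was taken. Named members are the 5 strongest calls each way per comparison (otherwise the 3 smallest p), the most counted, those with special roles and those at the limit of the rule; any other member named as called was added after its values were seen. Alternatives were DESeq2 1.42.0, its size factors, limma-voom with sample weights (limma 3.58.1), no filter, no rRNA loci, other blocks and leaving out each tumour. The scripts were tested on simulated counts. No 2 libraries of a group agreed within sampling noise. The labels call the tumours biological replicates.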

Additional observations from a re-analysis of the deposited data

Results flagged for a closer look

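The difference between combination and vehicle in J2 enrichment was tested directly, and 13 members passed. Higher with the combination, on the log2 scale, were Scarna17 by 4.85, Snora73b by 4.32, Scarna13 by 4.01, Scarna6 by 3.36, Snord15a by 2.79, Snora31 by 2.47, Scarna2 by 2.04 and Snord118 by 1.93. Lower were Snord53 at -2.91, Snord72 at -3.16 and Snora69 at -4.41. Snord8 and Snord70, with no count in combination J2 libraries, are given at their bounds of -2.85 and -3.08. The bounds pool these libraries, cover counting error only and take the fitted vehicle ratio as exact. They are therefore not limits across tumours, and Snord70 lost its call without vehicle 1 or combination 3. Of all genes 29.9% passed this test. The share of ribosomal RNA loci in these J2 libraries, 23.1% to 58.9%, moved with the group, and its part was not tested. Leaving those loci out of the counts kept all 13 calls. That fit drops 5 rows only, so it does not test what goes with the share.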

How the results depend on the processing

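Few counts limit most members: 27 of 40 had under 500 in all. Percentages here are the share of all genes called in the same fit. Limma-voom was run with sample weights, so libraries could count unequally in it. With limma-voom more members and more genes were called: 16 (10 higher, 6 lower; 38.8%) for the combination against vehicle in input, 12 (5 and 7; 33.6%) against docetaxel, 21 (15 and 6; 51.5%) against ORIN1001, 24 (13 and 11; 72.1%) for J2 in vehicle tumours, 19 (59.6%) with ORIN1001, 14 (49.9%) with docetaxel, and 11 (2 and 9; 21.3%) for the change with ORIN1001. DESeq2 called 1 member for docetaxel against vehicle (0.737%), 2 for the combination against vehicle (14%) and 2 against ORIN1001 (19.5%); with its size factors in edgeR, 1 was called for the combination against vehicle (6.03%). With no filter, 10 were called for J2 with ORIN1001 (15.3%) and 2 for the change with docetaxel (0.423%). Outside rRNA loci, the members' share was 237.0 per 1000000 in docetaxel inputs and 796.7 in combination J2 libraries. For these the cause was not tested.

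Replicate numbers across treatments name different mice, and inputs with the same number correlated above 0.1 in 3 of 18 pairs; a replicate block on the inputs gave 0 calls for the combination against docetaxel (0%) and changed no other input count by over 1.5 times. Without the tumour block, J2 called 6 members with vehicle (25.9%), 3 with ORIN1001 (15.9%) and 4 with docetaxel (12.6%).

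Leaving out 1 tumour gave 0 to 7 calls for the combination against vehicle (0% to 28%), 0 to 5 against docetaxel (0% to 23.8%) and 0 to 12 against ORIN1001 (0% to 35.2%). For J2 against input it gave 15 to 19 over all treatments (46.9% to 61.6%), 5 to 14 with vehicle (20.5% to 51.6%), 3 to 10 with ORIN1001 (11.9% to 40.1%), 1 to 13 with docetaxel (2.79% to 39.8%) and 5 to 15 with the combination (18.1% to 46.0%). For the combination's change it gave 8 to 16 (18.1% to 41.2%).

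In these comparisons signs turned only for members that were not called. For J2 over all treatments, Scarna13 was 0.14 without the block and -0.34 to 0.017 with 1 tumour left out. Scarna6 was -0.016 with limma-voom, -0.098 to 0.18 with 1 tumour left out and -0.50 over the 8 tumours with low rRNA counts, a set chosen after seeing the data. Snora47 was -0.059, -0.063 to 0.22 and -0.0097 in the same order. For the combination's change, Snora17 was -0.71 to 0.12 with 1 tumour left out, and Snora47 was 0.38 with limma-voom and -0.60 to 0.40 with 1 tumour left out. In inputs, the combination against vehicle gave Scarna6 -0.039, Snora31 -0.10 and Snord43 -0.14 with limma-voom. With 1 tumour left out it gave Scarna13 -0.41 to 0.20, Scarna17 -1.63 to 0.15, Snora31 -0.11 to 0.92, Snord43 -0.27 to 0.59, Snord104 -0.35 to 0.14 and Snord15a -0.64 to 0.29. Docetaxel against vehicle gave Snord17 -0.075 to 4.07, the lowest without docetaxel 3.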
